A study of Mus musculus with 18 samples.

Results

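The genes described here are 31 mouse genes of the endoplasmic reticulum (ER) stress and unfolded protein response, out of 45706 genes in a table of read counts. They were chosen by name, and all 31 symbols matched 1 row of the table each. RNA sequencing was done on 18 libraries of primary macrophages grown from C57BL/6 bone marrow in medium with 30% L929-conditioned medium, with a labelled age of 12 days. The 9 RelA-TA-KI libraries come from cells with a knock-in at Rela, which encodes a subunit of NF-kB, and the 9 WT libraries from cells without it. The labels do not give the altered sequence. In each genotype the conditions were 0.5, 1, 3 and 8 h of LPS at 100 ng/ml, the same times of TNF at 10 ng/ml, and no stimulus, with 1 library each. LPS is a bacterial cell wall component sensed by TLR4, and TNF is a cytokine. No label names separate cultures or animals, so p-values measure only the spread between these libraries, part of which may be technical. That spread comes from how the genotype pairs differ over the 9 conditions. It therefore also holds any genotype difference that changes with condition.

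The ER folds secreted and membrane proteins. When unfolded proteins build up there, 3 sensors in its membrane respond. IRE1 (Ern1) splices the mRNA of Xbp1, PERK (Eif2ak3) phosphorylates eIF2alpha, which slows translation but raises that of Atf4, and ATF6 (Atf6) is cut to release a transcription factor. XBP1, ATF6 and ATF4 then drive genes for chaperones, for ER-associated degradation and for amino acid supply, and CHOP (Ddit3) follows when the stress lasts. In macrophages, parts of this response are known to be used during inflammatory activation without a full stress response. Counts of mRNA do not show splicing of Xbp1, cleavage of ATF6 or phosphorylation of eIF2alpha.

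The sequence elements of this pathway were looked for in the 250 bases before each RefSeq start site of build GRCm38.p6, on both strands. Of the 31 members, 28 were in the RefSeq table; Atf6, Hyou1 and Manf were not. The ER stress response element ERSE, searched as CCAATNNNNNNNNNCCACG, was in 8 of the 28 members and in 0.113% of 32851 RefSeq promoters of the same length. ERSE was first described on promoters of genes that are members here, so this share is no independent result. The 9 matches are shown because the genes that hold them differ in their response, each in the direction of the motif and with its fixed bases in capitals, positions counted back from the start site.

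Calr (bases -162 to -144): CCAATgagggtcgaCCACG
Canx (bases -145 to -127): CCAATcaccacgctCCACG
Creld2 (bases -126 to -108): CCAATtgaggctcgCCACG
Dnajc3 (bases -105 to -87): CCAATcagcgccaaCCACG
Hsp90b1 (bases -212 to -194): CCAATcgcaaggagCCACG
Hsp90b1 (bases -107 to -89): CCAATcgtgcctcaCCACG
Hspa5 (bases -65 to -47): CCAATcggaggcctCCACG
Pdia6 (bases -98 to -80): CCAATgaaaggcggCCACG
Syvn1 (bases -44 to -26): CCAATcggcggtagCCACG

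ERSE-II, searched as ATTGGNCCACG, was in Herpud1 alone of the 28 members and in 0.0304% of all promoters. The core of the element read by ATF4 with C/EBP proteins (CARE), searched as TGATGNAA, was in Asns, Chac1 and Herpud1 and in 3.45% of all promoters. The core of the XBP1 element (UPRE), searched as TGACGTGG, was in none of the 28 windows and in 0.563% of all promoters. The NF-kB consensus was in Creld2 and Edem1 and in 3.9% of all promoters. None of these matches overlapped another, and a match is a description of the letters, not a binding site.

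The upstream windows of 6 members with values in every library are given next, 5′ to 3′ on the strand of the gene. They end at the RefSeq start site, which can differ from the gene start in the count table. For Hspa5, Chac1 and Asns the window runs into the gene as placed by the count table. The ERSE of Hspa5 and the CARE core of Asns lie in that overlap. The capitals mark ERSE in Hspa5, Syvn1 and Dnajc3.

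Hspa5 (chr2:34771840-34772089, plus strand): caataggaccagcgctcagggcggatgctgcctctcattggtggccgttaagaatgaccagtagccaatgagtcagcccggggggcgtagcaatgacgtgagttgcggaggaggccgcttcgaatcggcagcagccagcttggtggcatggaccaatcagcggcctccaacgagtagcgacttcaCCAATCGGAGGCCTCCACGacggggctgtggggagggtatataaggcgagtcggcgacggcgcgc
Syvn1 (chr19:6046326-6046575, plus strand): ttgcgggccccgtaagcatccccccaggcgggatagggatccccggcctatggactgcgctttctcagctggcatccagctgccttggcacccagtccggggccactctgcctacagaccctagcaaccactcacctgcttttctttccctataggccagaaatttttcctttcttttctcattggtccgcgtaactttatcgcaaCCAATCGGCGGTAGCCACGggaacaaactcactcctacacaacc
Dnajc3 (chr14:118937682-118937931, plus strand): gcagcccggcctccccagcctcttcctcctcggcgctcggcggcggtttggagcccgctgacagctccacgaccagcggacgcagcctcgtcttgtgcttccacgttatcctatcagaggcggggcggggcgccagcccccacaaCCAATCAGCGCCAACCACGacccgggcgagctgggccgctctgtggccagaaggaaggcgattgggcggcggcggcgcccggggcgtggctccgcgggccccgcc

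In the windows of the 3 members with a CARE core, the capitals mark that core, which is on the other strand in Herpud1 and Chac1, and in Herpud1 also ERSE-II.

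Herpud1 (chr8:94386179-94386428, plus strand): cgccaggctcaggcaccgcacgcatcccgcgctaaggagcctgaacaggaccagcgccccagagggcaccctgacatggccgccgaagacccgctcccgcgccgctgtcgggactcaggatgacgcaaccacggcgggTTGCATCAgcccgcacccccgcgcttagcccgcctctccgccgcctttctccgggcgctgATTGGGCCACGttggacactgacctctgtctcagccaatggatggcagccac
Chac1 (chr2:119350992-119351241, plus strand): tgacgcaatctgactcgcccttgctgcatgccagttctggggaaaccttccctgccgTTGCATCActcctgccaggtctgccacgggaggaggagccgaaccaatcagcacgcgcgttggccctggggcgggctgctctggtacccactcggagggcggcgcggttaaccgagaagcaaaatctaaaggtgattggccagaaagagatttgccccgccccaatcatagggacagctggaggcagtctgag
Asns (chr6:7693210-7693459, minus strand): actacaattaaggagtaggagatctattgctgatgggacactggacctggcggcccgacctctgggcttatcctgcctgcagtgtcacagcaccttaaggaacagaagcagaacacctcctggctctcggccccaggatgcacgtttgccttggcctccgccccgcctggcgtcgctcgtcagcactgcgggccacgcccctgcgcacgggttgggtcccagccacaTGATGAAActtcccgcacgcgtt

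The libraries held 4663650 to 6721917 counts. Levels are CPM, counts scaled to a common library size, with each library's size adjusted by a TMM factor, which assumes that most genes do not change. These factors ran from 0.568 to 1.205 and were lowest at 8 h of LPS. Scaled by library totals alone, the median change of all 11308 genes tested moved by -0.95 (log2) at 8 h and -0.53 at 3 h of LPS, by -0.25 at 8 h of TNF and by -0.31 for LPS against TNF. The smaller shifts were -0.14 at 1 h of LPS, -0.13 at 3 h of TNF and -0.10 for genotype late minus early, and LPS against TNF shifted by -0.41 at 3 h and -0.70 at 8 h. Changes are therefore relative to the bulk of genes. The orders of libraries and pairs given below are those of the TMM scale, and most were not checked with library totals. Library totals turned the sign of 11 of the 31 member values at 8 h of LPS, of which 2 had passed, and of 11 at 8 h of TNF, of which 0 had passed. Of all genes called, the share called higher was 49.6% with TMM factors and 20.1% with library totals for the LPS response, 55.1% and 31.7% for TNF over its times, 48.5% and 14.2% for the contrast of LPS with TNF, and 52.1% and 27.9% for genotype. With library totals 1973 of the 11308 genes were up and 7853 down after LPS, and 1322 and 2853 after TNF. For LPS against TNF 1172 were higher and 7057 lower, and for genotype 705 and 1823. Member counts with library totals are to be read beside these. Rela had 67.4 to 181 CPM (median 104) in RelA-TA-KI libraries and 62.5 to 283 CPM (median 119) in WT libraries, which does not check a change of sequence. All 11 macrophage markers were detected in every library, with summed levels of 9655 to 17080 CPM in RelA-TA-KI and 9888 to 15560 CPM in WT. The library of RelA-TA-KI cells after 3 h of TNF had the lowest depth of the 18, the lowest share of mitochondrial counts (0.404%) and the highest share of its top gene (3.36%). Some of the results that rest on it are also given without it. Others are not, such as the counts of members called for LPS against TNF at 3 h and for genotype, which were lower without it.

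Before stimulation the ER chaperones were the most abundant members per kb of exon. The mean of both unstimulated libraries was 461 CPM per kb for Calr, 302 for Hspa5, 288 for Hsp90b1, 245 for Pdia3 and 223 for Canx, and Atf4 followed with 151. Chac1 was lowest with 2.38 CPM per kb, after Trib3 with 3.75 and Ern1 with 6.00. Together the 31 genes took 1.101% of counts (95% exact binomial interval 1.091 to 1.11) in unstimulated RelA-TA-KI cells and 1.062% (1.054 to 1.069) in WT. At 8 h of LPS this share was 0.671% (0.664 to 0.677) in RelA-TA-KI and 0.6929% (0.6855 to 0.7005) in WT. At 8 h of TNF it was 1.114% (1.105 to 1.123) in RelA-TA-KI and 1.117% (1.108 to 1.126) in WT. These intervals cover counting error only. On the TMM scale the summed level was instead higher at 8 h of LPS, with 11819 CPM against 9499 CPM unstimulated in RelA-TA-KI and 10608 CPM against 8827 CPM in WT.

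After LPS 22 of the 31 members passed over the 4 times, 11 up and 11 down at their time of largest change, by edgeR's quasi-likelihood F test with Benjamini-Hochberg adjustment over all genes and a threshold of 0.05. That is 71% of members, where 72.2% of all genes tested were called (35.8% up and 36.4% down), so the share is near the background. The median change of the members was -0.04 (log2) and that of all genes -0.20. With library totals 2 members were called up and 28 down. Markers of other cell types moved too: 4 of 10 tested neutrophil markers rose, with S100a8 at 1.42 and S100a9 at 1.46 (log2), and 1 fell, and library totals gave 4 up and 2 down. Neutrophil markers summed to 217 to 469 CPM with LPS and to 185 to 266 CPM unstimulated. Their part in the members' values was not tested. At 0.5 h only Ppp1r15a passed (0.92% of all genes), a call that is lost without a filter on low counts and without the RelA-TA-KI library at 3 h of TNF. At 1 h 4 members rose and 0 fell (6.84% of all genes called): Ppp1r15a, Chac1, Herpud1 and Hspa5, of which Hspa5 did not pass with library totals or without the filter. At 3 h 5 rose and 7 fell, where 24.8% of all genes rose and 22.7% fell (47.6% called). At 8 h 6 rose and 10 fell, where 33.8% rose and 33.9% fell (67.7% called). With library totals the splits were 2 up and 26 down at 3 h and 3 up and 23 down at 8 h. On that scale 1386 of all genes were up and 6646 down at 3 h, and 1737 and 7657 at 8 h.

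Over the 4 times of TNF 9 members rose and 1, Atf6, fell, where 16.7% of all genes rose and 13.6% fell. That is 32.3% of members, where 30.4% of all genes were called, so this share too is near the background. The members' median change was 0.27 (log2) and that of all genes -0.08; with library totals 4 members were called up and 5 down. No member passed at 0.5 h (0.38% of all genes called) or at 1 h (1.07%); at an unadjusted p under 0.05 there were 2 and 1, and DESeq2 called 1 at each time. At 3 h Hspa5, Sel1l and Asns rose (13.5% of all genes called), of which none passed with library totals or without the RelA-TA-KI library of that time. At 8 h 9 rose and 1 fell, where 17.1% of all genes rose and 14.8% fell (31.9% called). Both responses are measured against the same unstimulated libraries. Stromal markers summed to 15.6 to 203 CPM with TNF and to 55.9 to 159 CPM unstimulated. Neutrophil markers summed to 166 to 332 CPM with TNF and to 185 to 266 CPM unstimulated. With library totals 3 of 4 tested stromal and 2 of 10 tested neutrophil markers were lower at 8 h of TNF, and 0 of either were higher. Their part in the members' TNF values was not tested.

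**Figure D1:**
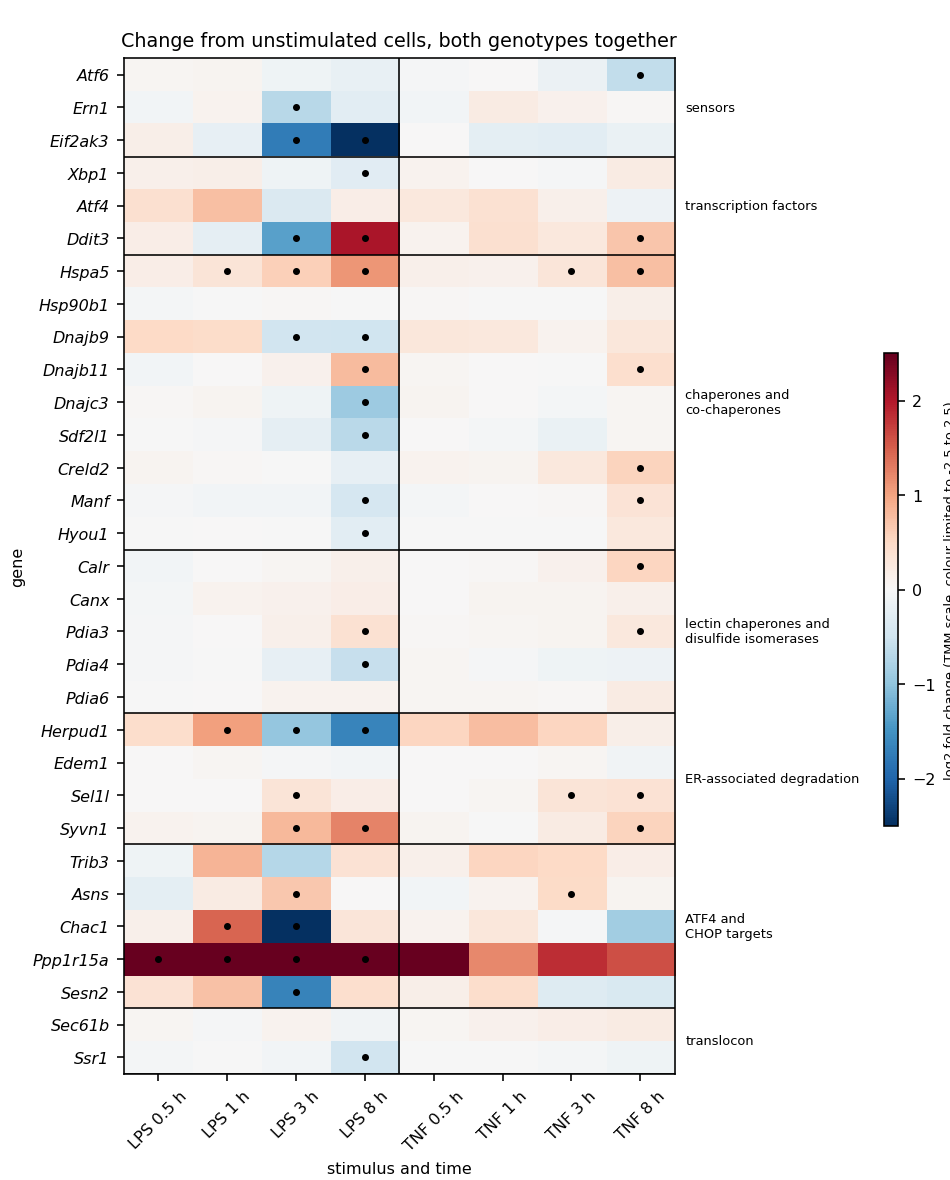
Fitted log2 fold change over unstimulated cells for the 31 members (rows, by role) at each time of LPS (left) and TNF (right), both genotypes together, on the TMM scale with colours limited to 2.5 in either direction; a dot marks an adjusted p under 0.05. At 8 h 6 members rose and 10 fell after LPS, whereas 9 rose and 1 fell after TNF. With library totals the LPS split at 8 h was 3 up and 23 down, and the TNF split 3 up and 5 down. On that scale 1737 of all genes were up and 7657 down after LPS, and 1158 and 3510 after TNF.

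Among the sensors, Eif2ak3 (chromosome 6, 70844515 to 70905245, plus strand), which encodes the eIF2alpha kinase PERK, fell far below its unstimulated level after LPS; gene positions are those of the count table, on mm10. It had 41.8 CPM unstimulated and 40.8, 34.8, 12.1 and 5.61 CPM over the LPS times in RelA-TA-KI cells, against 36.4 and then 45.6, 32.8, 11.1 and 7.75 CPM in WT cells. Its TNF levels were 40.9, 35.5, 31.9 and 38.6 CPM in RelA-TA-KI cells, against 38.0, 30.3, 33.1 and 31.2 CPM in WT cells. All 4 libraries at 3 and 8 h of LPS were below every other library, while no TNF library was below 30.3 CPM. The change was -1.75 ± 0.15, adjusted p = 6.95e-07 at 3 h and -2.55 ± 0.18, adjusted p = 2.89e-08 at 8 h (log2 ± standard error, both genotypes together, 2 libraries per condition). At 8 h of TNF it was -0.16 ± 0.13, adjusted p = 0.372, and with library totals -0.41 (adjusted p = 0.0286).

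Ern1 (chromosome 11, 106394650 to 106487852, minus strand), the gene of the splicing enzyme IRE1, was low after LPS at 3 h. It had 54.7 CPM unstimulated and 43.6, 59.9, 30.2 and 34.3 CPM over the LPS times in RelA-TA-KI cells, against 43.4 and then 49.2, 44.7, 30.0 and 47.5 CPM in WT cells. Over the TNF times it had 46.5, 62.6, 59.0 and 47.3 CPM in RelA-TA-KI cells, against 47.0, 50.4, 46.6 and 52.2 CPM in WT cells. Both libraries at 3 h of LPS were the lowest of the 18, while at 8 h the WT library was above its unstimulated level and the RelA-TA-KI library below its own. Ern1 fell by 0.69 ± 0.19 (log2) at 3 h (adjusted p = 0.00776), and its value at 8 h was -0.26 ± 0.19, adjusted p = 0.243. With library totals it was called lower at 8 h as well (-1.21, adjusted p = 9.88e-05).

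Atf6 (chromosome 1, 170704674 to 170867771, minus strand), the gene of the third sensor, was the member that fell after TNF. It had 213 CPM unstimulated and 213, 227, 209 and 205 CPM over the LPS times in RelA-TA-KI cells, against 206 and then 219, 213, 183 and 165 CPM in WT cells. With TNF the levels were 204, 223, 221 and 155 CPM in RelA-TA-KI cells, against 208, 201, 163 and 120.3 CPM in WT cells. In each genotype the library at 8 h of TNF was the lowest. The TNF value at 8 h was -0.61 ± 0.12, adjusted p = 0.00127, and the LPS value -0.18 ± 0.12, adjusted p = 0.178. With library totals the LPS value passed as well (-1.14, adjusted p = 1.2e-07), so that all 3 sensors were called lower at 8 h of LPS on that scale.

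The transcription factor CHOP, encoded by Ddit3 (chromosome 10, 127290774 to 127296288, plus strand) and known from lasting ER stress, went down and then up. Ddit3 had 18.1 CPM unstimulated and 25.3, 21.1, 7.78 and 80.6 CPM over the LPS times in RelA-TA-KI cells, against 17.3 and then 15.4, 10.3, 6.18 and 67.2 CPM in WT cells. The TNF libraries had 23.8, 27.7, 24.4 and 28.5 CPM in RelA-TA-KI cells, against 14.9, 20.3, 19.1 and 29.4 CPM in WT cells. In both genotypes the library at 3 h of LPS was the lowest and that at 8 h the highest of all conditions. The LPS change was -1.37 ± 0.25, adjusted p = 0.00059 at 3 h and 2.04 ± 0.19, adjusted p = 5.61e-07 at 8 h, and with library totals it was -1.90 and 1.08. At 8 h of TNF it was 0.70 ± 0.20, adjusted p = 0.0158, which library totals put at 0.45 (adjusted p = 0.113). Exons of Ddit3 overlap those of Mars on the other strand, which had 6358 reads in all, and the strand setting of the counting is not given in the sources used here. Mars, a methionyl-tRNA synthetase, had a value of -1.45 ± 0.11 at 8 h of LPS. The part of its reads in the Ddit3 counts was not tested, at 3 h or at 8 h.

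Atf4 (chromosome 15, 80255184 to 80257540, plus strand), whose protein is mainly set by translation, is described here only as mRNA. It had 248 CPM unstimulated and 387, 513, 195 and 236 CPM over the LPS times in RelA-TA-KI cells, against 271 and then 298, 369, 208 and 346 CPM in WT cells. After TNF it had 359, 363, 312 and 220.0 CPM in RelA-TA-KI cells, against 265, 313, 260.5 and 258 CPM in WT cells. It passed the test over the 4 LPS times (adjusted p = 0.00516), while no single time did with TMM factors: its highest value was 0.75 ± 0.21, adjusted p = 0.06 at 1 h of LPS. With library totals it was called lower at 3 h (-0.90, adjusted p = 0.00816) and at 8 h (-0.77, adjusted p = 0.0141) of LPS. At 1 h of TNF it was 0.37 ± 0.21, adjusted p = 0.797.

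Xbp1 (chromosome 11, 5520659 to 5525893, plus strand), the target of IRE1 and a factor of plasma cells and other secretory cells, is counted here over both splice forms. It had 143 CPM unstimulated and 166, 169.6, 157 and 116 CPM over the LPS times in RelA-TA-KI cells, against 125 and then 129, 131, 97.4 and 103 CPM in WT cells. Its TNF levels were 156, 141, 150.0 and 162 CPM in RelA-TA-KI cells, against 131, 129, 114 and 146 CPM in WT cells. On the TMM scale the RelA-TA-KI library was above the WT library in each of the 9 conditions. With library totals the pair at 8 h of LPS turned the other way, with 394 of 5967840 counts in RelA-TA-KI and 319 of 4739922 in WT. At 8 h of LPS it fell by 0.29 ± 0.12 (adjusted p = 0.0446), a call that is lost with DESeq2 and its size factors and with a filter of 1 CPM in 9 libraries. Its TNF value at that time was 0.20 ± 0.12, adjusted p = 0.222. With library totals the LPS value was -1.25 (adjusted p = 5.5e-07) and the TNF value -0.05. All 3 transcription factors were called lower at 3 h of LPS with library totals, Xbp1 with -0.64.

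Of 9 chaperones and co-chaperones 2, Hspa5 and Dnajb11, rose at 8 h of LPS and 5 fell, where 33.8% of all genes rose and 33.9% fell (67.7% called); with library totals 0 were up and 7 down. Hspa5 (chromosome 2, 34771970 to 34777547, plus strand) encodes BiP, the main ER chaperone, which also holds the sensors inactive. It had 1349 CPM unstimulated and 1584, 1740.3, 2089.9 and 3023 CPM over the LPS times in RelA-TA-KI cells, against 1203 and then 1297, 1438, 1782 and 2512 CPM in WT cells. Over the TNF times it had 1471, 1448, 1669.5 and 2225 CPM in RelA-TA-KI cells, against 1323, 1304, 1460.0 and 2055 CPM in WT cells. Within each genotype every later LPS library was above the one before it on the TMM scale. With library totals the level was lower at 3 h than at 1 h of LPS in both genotypes. Hspa5 rose by 0.60 ± 0.08 at 3 h and 1.11 ± 0.08 at 8 h of LPS (adjusted p = 2.82e-05 and 2.64e-08). The rise at 8 h of TNF was 0.75 ± 0.08 (adjusted p = 7.45e-06). With library totals the LPS values shrank to 0.06 and 0.16 and did not pass (adjusted p = 0.0571 at 8 h), and the TNF value was 0.50 (adjusted p = 0.000121).

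Dnajb11 (chromosome 16, 22857845 to 22879634, plus strand), a J-domain partner of BiP, had 184 CPM unstimulated and 176, 189, 205 and 334 CPM over the LPS times in RelA-TA-KI cells, against 179 and then 172, 176, 188 and 297 CPM in WT cells. With TNF the levels were 193, 189.8, 173 and 245 CPM in RelA-TA-KI cells, against 182, 174, 185 and 238 CPM in WT cells. The 8 h libraries of both stimuli were above all others. It rose by 0.80 ± 0.08 at 8 h of LPS (adjusted p = 1e-06), where library totals give -0.16 (adjusted p = 0.0965), and by 0.41 ± 0.08 at 8 h of TNF (adjusted p = 0.00141).

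Dnajc3 (chromosome 14, 118937932 to 118981702, plus strand), another BiP co-chaperone, known as an inhibitor of PERK and PKR, fell at 8 h of LPS; it carries an ERSE match, as Hspa5 does. It had 170.3 CPM unstimulated and 183, 188, 159.9 and 92.7 CPM over the LPS times in RelA-TA-KI cells, against 169 and then 165, 169, 156 and 87.5 CPM in WT cells. The TNF libraries had 183, 169.9, 171 and 175 CPM in RelA-TA-KI cells, against 170.4, 172, 159.6 and 178 CPM in WT cells. Only the 2 libraries at 8 h of LPS were below the range of the other 16. The change there was -0.91 ± 0.08, adjusted p = 2.72e-07, and at 8 h of TNF 0.05 ± 0.08, adjusted p = 0.642, where library totals give -0.20.

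Creld2 (chromosome 15, 88819646 to 88826681, plus strand), a secreted ER stress marker, had 33.3 CPM unstimulated and 36.4, 32.1, 32.9 and 30.7 CPM over the LPS times in RelA-TA-KI cells, against 32.7 and then 32.8, 34.8, 32.8 and 26.2 CPM in WT cells. After TNF it had 39.1, 33.7, 40.6 and 46.1 CPM in RelA-TA-KI cells, against 31.4, 35.5, 38.7 and 51.5 CPM in WT cells. Both 8 h libraries of TNF were above all others, and both 8 h libraries of LPS below. It rose by 0.57 ± 0.12 at 8 h of TNF (adjusted p = 0.00234; 0.32 and adjusted p = 0.0549 with library totals), and its value at 8 h of LPS was -0.21 ± 0.13, adjusted p = 0.167, which passed with library totals (-1.17, adjusted p = 2.54e-06).

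The remaining chaperones fell or did not pass at 8 h of LPS. Sdf2l1, a partner in chaperone complexes of the ER, had 67.0 CPM in RelA-TA-KI and 47.2 CPM in WT at 8 h of LPS, against 92.3 and 87.8 CPM unstimulated, and fell by 0.66 ± 0.11 (adjusted p = 0.000161). Manf, a secreted protective factor, fell by 0.42 ± 0.12 after LPS and rose by 0.33 ± 0.11 after TNF at 8 h, a rise that library totals put at 0.08 (adjusted p = 0.558). Its exons overlap those of Rbm15b on the same strand (3065 reads) and of Dcaf1 on the other (2158 reads), so its counts are uncertain. Hyou1, a large relative of Hsp70 chaperones, fell by 0.27 ± 0.10 at 8 h of LPS (adjusted p = 0.0285), although it did not pass over the 4 times (adjusted p = 0.1). Dnajb9, a BiP co-chaperone of ER-associated degradation, fell by 0.49 ± 0.18 at 8 h of LPS (adjusted p = 0.0279). Dnajb9 was called up over the 4 LPS times by its value of 0.50 ± 0.16 at 0.5 h, which did not pass on its own (adjusted p = 0.351). Hsp90b1, the ER Hsp90 (GRP94), kept to 1093 to 1300.0 CPM in all 18 libraries on the TMM scale and passed no response test there. With library totals it was called lower at 3 h (-0.50, adjusted p = 3.67e-05) and at 8 h of LPS (-0.96, adjusted p = 2.74e-08).

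**Figure D2:**
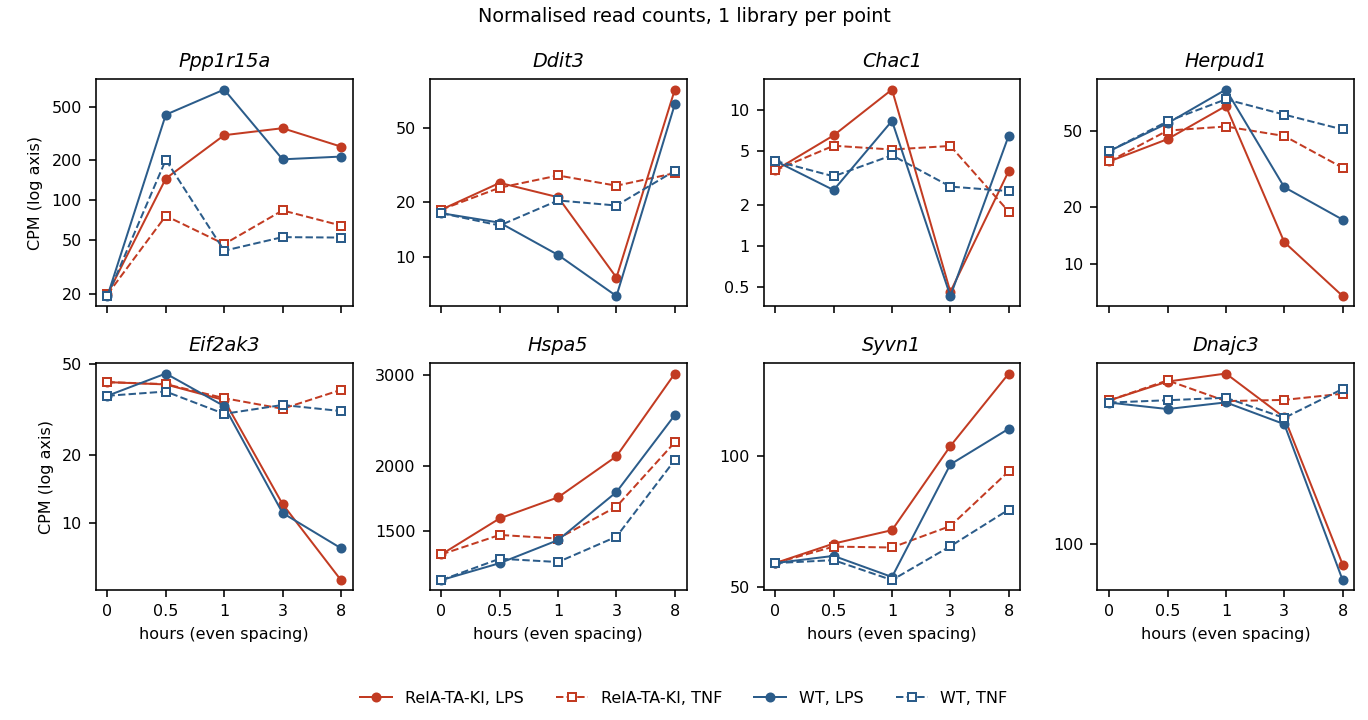
Normalised read counts (CPM, log axis) of 8 members over hours of LPS (filled circles, solid lines) or TNF (open squares, dashed lines) in RelA-TA-KI (red) and WT (blue) cells, with 1 library per point and no error bar. Hspa5 reached 3023 CPM in RelA-TA-KI and 2512 CPM in WT at 8 h of LPS, and Eif2ak3 5.61 and 7.75 CPM; library totals shrink the Hspa5 rise to 0.16 on the log2 scale, below the threshold.

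Among 5 lectin chaperones and disulfide isomerases 1 rose and 1 fell at 8 h of LPS with TMM factors, where 33.8% of all genes rose and 33.9% fell. Calr (chromosome 8, 84841850 to 84846934, minus strand) encodes calreticulin, which folds glycoproteins and stores calcium. It had 1380.1 CPM unstimulated and 1329.5, 1405, 1438 and 1545 CPM over the LPS times in RelA-TA-KI cells, against 1278 and then 1210.4, 1278, 1329 and 1367 CPM in WT cells. Its TNF levels were 1404, 1385, 1472 and 2023 CPM in RelA-TA-KI cells, against 1266, 1318, 1397 and 1832 CPM in WT cells. Both 8 h libraries of TNF were above all 16 others. Calr rose by 0.54 ± 0.07 at 8 h of TNF (adjusted p = 7.12e-05; 0.29 with library totals), and its LPS value at 8 h was 0.13 ± 0.07, adjusted p = 0.122. Pdia3, the isomerase that works with calreticulin, rose by 0.37 ± 0.08 at 8 h of LPS (adjusted p = 0.000639) and by 0.26 ± 0.08 at 8 h of TNF (adjusted p = 0.0188), where library totals give -0.58 and 0.01. Pdia4, another isomerase, fell by 0.57 ± 0.09 at 8 h of LPS (adjusted p = 5.1e-05). Canx and Pdia6, a membrane lectin chaperone and an isomerase, passed no response test with TMM factors; on that scale their levels ran from 995 to 1199 CPM and from 337 to 431 CPM. With library totals all 5 genes of this group were called down at 3 h and at 8 h of LPS.

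Of 4 genes of ER-associated degradation 2 rose and 1 fell over the LPS times, where 35.8% of all genes rose and 36.4% fell (72.2% called). At 8 h library totals gave 1 up and 3 down, where 1737 of the 11308 genes were called up and 7657 down. Syvn1 (chromosome 19, 6046576 to 6053712, plus strand) encodes HRD1, the ubiquitin ligase of that pathway, and had 56.7 CPM unstimulated and 62.8, 67.5, 105 and 155 CPM over the LPS times in RelA-TA-KI cells, against 56.7 and then 58.9, 52.6, 95.7 and 116 CPM in WT cells. Over the TNF times it had 61.8, 61.5, 69.0 and 92.3 CPM in RelA-TA-KI cells, against 57.5, 51.8, 62.0 and 75.3 CPM in WT cells. On the TMM scale the 4 libraries at 3 and 8 h of LPS were above all others, an order that does not hold with library totals. Syvn1 rose by 0.82 ± 0.10 at 3 h and 1.24 ± 0.10 at 8 h of LPS (adjusted p = 1.76e-07), and by 0.55 ± 0.10 at 8 h of TNF (adjusted p = 0.00115); with library totals the 8 h values were 0.28 (adjusted p = 0.0185) and 0.30 (adjusted p = 0.028). Its exons overlap those of Mrpl49 on the other strand, with 2051 reads in all.

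Herpud1 (chromosome 8, 94386438 to 94395377, plus strand), a scaffold that recruits proteins to HRD1, was high early and low late. It had 34.6 CPM unstimulated and 45.3, 67.7, 13.04 and 6.79 CPM over the LPS times in RelA-TA-KI cells, against 39.2 and then 54.9, 82.6, 25.4 and 17.1 CPM in WT cells. With TNF the levels were 50.3, 52.8, 47.1 and 32.1 CPM in RelA-TA-KI cells, against 56.2, 73.4, 61.0 and 51.0 CPM in WT cells. In both genotypes 1 h of LPS gave the highest level and 8 h the lowest, and the WT library was above the RelA-TA-KI library in each condition. Herpud1 rose by 1.03 ± 0.18 at 1 h of LPS (adjusted p = 0.00261) and fell by 1.66 ± 0.23 at 8 h (adjusted p = 2.73e-05). At 1 h of TNF it was 0.77 ± 0.18, adjusted p = 0.0626; it passed over the 4 TNF times (adjusted p = 0.0207), and at 1 h with DESeq2 (adjusted p = 0.0131), with limma-voom (0.0302), with no filter (0.0269) and without the 3 h or the 8 h pair of LPS.

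Edem1 (chromosome 6, 108828641 to 108859356, plus strand), which sorts misfolded glycoproteins for degradation, had 579 CPM unstimulated and 581, 622, 592 and 632 CPM over the LPS times in RelA-TA-KI cells, against 503 and then 506, 498, 479 and 413 CPM in WT cells. The TNF libraries had 569, 583, 654 and 607 CPM in RelA-TA-KI cells, against 517, 508, 478 and 421 CPM in WT cells. It passed no response test with TMM factors, and with library totals it was called lower at 3 h (-0.56) and 8 h of LPS (-1.03, adjusted p = 1.46e-07) and at 8 h of TNF (-0.34, adjusted p = 0.00806). On the TMM scale its RelA-TA-KI libraries were all above its WT libraries, without overlap. With library totals they overlapped, as the RelA-TA-KI library at 8 h of LPS was then below the unstimulated WT library. Sel1l, the partner of HRD1, rose by 0.33 ± 0.09 at 3 h of LPS (adjusted p = 0.0112; -0.20 with library totals) and by 0.35 ± 0.09 at 8 h of TNF (adjusted p = 0.0119; 0.10 with library totals).

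Of the ATF4 and CHOP targets, Ppp1r15a had the largest fitted change of all members. It lies on chromosome 7, 45522916 to 45526268, minus strand of mm10 and encodes GADD34, which brings a phosphatase to eIF2alpha and restores translation. Ppp1r15a had 19.7 CPM unstimulated and 146, 307, 347 and 252 CPM over the LPS times in RelA-TA-KI cells, against 19.2 and then 438, 675, 203 and 213 CPM in WT cells. After TNF it had 76.4, 47.0, 84.0 and 64.7 CPM in RelA-TA-KI cells, against 201, 41.9, 53.0 and 52.6 CPM in WT cells. Every stimulated library was above both unstimulated ones, and at 0.5 and 1 h of LPS the WT level was more than that of RelA-TA-KI, while at 3 and 8 h it was less. Ppp1r15a rose by 4.62 ± 0.70 at 1 h (adjusted p = 0.00336) and by 3.60 ± 0.68 at 8 h of LPS (adjusted p = 0.000954). At 0.5 h of TNF its value was 2.80 ± 0.67, adjusted p = 0.276, and it passed at none of the TNF times. The genotype difference, which changed direction over the times of both stimuli, is part of its standard error.

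Chac1 (chromosome 2, 119351229 to 119354381, plus strand), a glutathione-degrading enzyme and ATF4 target, was the least abundant member. It had 3.59 CPM unstimulated and 6.48, 14.1, 0.458 and 3.54 CPM over the LPS times in RelA-TA-KI cells, against 4.21 and then 2.57, 8.28, 0.426 and 6.46 CPM in WT cells. Its TNF levels were 5.44, 5.10, 5.42 and 1.78 CPM in RelA-TA-KI cells, against 3.24, 4.62, 2.72 and 2.52 CPM in WT cells. Both libraries at 3 h of LPS held 2 reads each. The 4 reads there, against 54 in the unstimulated libraries, give 0.112 of the unstimulated level (95% exact interval 0.0294 to 0.303, counting error only). Chac1 rose by 1.45 ± 0.36 at 1 h of LPS (adjusted p = 0.0271), fell at 3 h (adjusted p = 0.00271) and was 0.30 ± 0.46, adjusted p = 0.575 at 8 h, where library totals give -0.65.

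Sesn2 (chromosome 4, 132492032 to 132510501, minus strand), a stress-induced inhibitor of mTORC1 signalling, had 26.0 CPM unstimulated and 37.6, 48.3, 8.47 and 27.2 CPM over the LPS times in RelA-TA-KI cells, against 28.3 and then 32.8, 42.0, 8.74 and 46.5 CPM in WT cells. Over the TNF times it had 33.0, 41.5, 22.7 and 18.2 CPM in RelA-TA-KI cells, against 27.5, 32.2, 21.1 and 23.6 CPM in WT cells. As with Ddit3 and Chac1, both libraries at 3 h of LPS were the lowest of the 18. Sesn2 fell by 1.66 ± 0.26 at 3 h (adjusted p = 0.000148), and was 0.73 ± 0.20, adjusted p = 0.0502 at 1 h and 0.43 ± 0.22, adjusted p = 0.0993 at 8 h, where library totals give -0.52. Over the 4 TNF times it passed (adjusted p = 0.0429), with 0.43 ± 0.20 at 1 h.

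Trib3 (chromosome 2, 152337422 to 152344032, minus strand), a pseudokinase induced by CHOP and ATF4, had 8.25 CPM unstimulated and 7.77, 20.9, 6.41 and 8.56 CPM over the LPS times in RelA-TA-KI cells, against 7.67 and then 7.24, 9.02, 3.62 and 12.3 CPM in WT cells. With TNF the levels were 10.2, 15.7, 14.8 and 9.11 CPM in RelA-TA-KI cells, against 7.51, 8.50, 8.48 and 8.82 CPM in WT cells. Its RelA-TA-KI and WT levels lay furthest apart at 1 h of LPS. Trib3 passed over the 4 LPS times (adjusted p = 0.0116) and at no single one with TMM factors, with 0.84 ± 0.30, adjusted p = 0.136 at 1 h and -0.71 ± 0.37, adjusted p = 0.137 at 3 h. With library totals it was called lower at 3 h (-1.24, adjusted p = 0.0113).

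Asns (chromosome 6, 7675169 to 7693254, minus strand), the asparagine synthetase, had 70.5 CPM unstimulated and 60.7, 80.0, 112 and 67.6 CPM over the LPS times in RelA-TA-KI cells, against 58.0 and then 48.1, 67.0, 93.5 and 62.0 CPM in WT cells. The TNF libraries had 67.6, 67.9, 98.4 and 67.3 CPM in RelA-TA-KI cells, against 54.5, 68.3, 80.0 and 67.3 CPM in WT cells. The 3 h libraries of LPS were the highest of each genotype, and those of TNF came next. Asns rose by 0.68 ± 0.10 at 3 h of LPS (adjusted p = 0.000103; 0.14 and adjusted p = 0.272 with library totals) and by 0.47 ± 0.10 at 3 h of TNF (adjusted p = 0.00785). Without the RelA-TA-KI library at 3 h of TNF the TNF value did not pass (adjusted p = 0.0664).

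Of the translocon genes, Sec61b, a subunit of the protein-conducting channel, ran from 21.96 to 31.9 CPM and passed no response test with TMM factors. With library totals it was called lower at 3 h (-0.44, adjusted p = 0.00462) and at 8 h of LPS (-1.04, adjusted p = 3.09e-06). Ssr1, a subunit of the translocon-associated protein complex, had 279.9 CPM in RelA-TA-KI and 255 CPM in WT at 8 h of LPS, against 386 and 363 CPM unstimulated. It fell by 0.48 ± 0.07 (adjusted p = 4.77e-05).

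**Figure D3:**
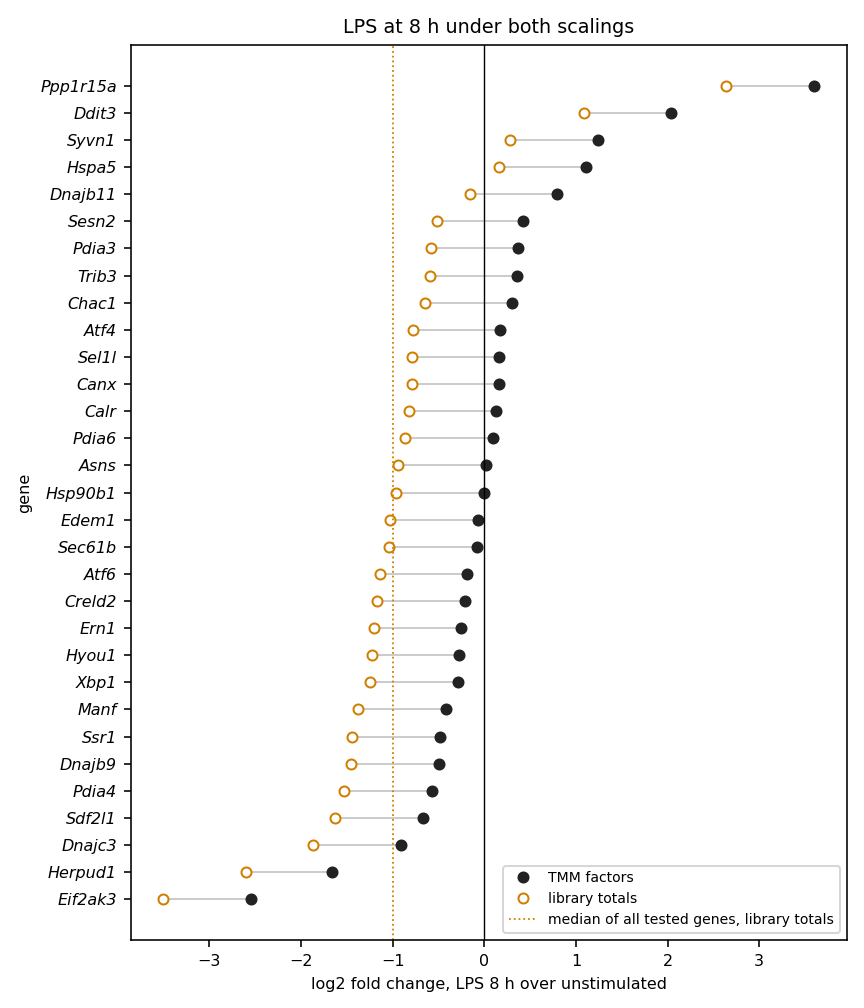
Log2 fold change at 8 h of LPS over unstimulated cells for each member (rows), with TMM factors (filled) and with library totals (open); the dotted line is the median of all genes tested with library totals, and 0 is no change. Ppp1r15a, Ddit3 and Syvn1 were called up on both scales, Hspa5 and Dnajb11 only with TMM factors, Pdia3 up with TMM factors and down with library totals, and Eif2ak3, Herpud1 and Dnajc3 down on both.

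At matched times LPS was also set against TNF. Over the 4 times 4 members were higher and 12 lower with LPS than with TNF, where 23.7% of all genes were higher and 25.2% lower (48.9% called), and the median difference was -0.11 (log2) for members and -0.02 for all genes. Higher with LPS were Ppp1r15a (2.12 ± 0.31, adjusted p = 0.000337), Syvn1 (0.35 ± 0.05, adjusted p = 9.84e-05), Hspa5 (0.23 ± 0.04, adjusted p = 0.000282) and Dnajb11 (0.10 ± 0.04, adjusted p = 0.0489); with library totals only Ppp1r15a was, 26 members were lower, and Hspa5 and Dnajb11 turned to -0.08 and -0.20. The lower ones were led by Eif2ak3 (-0.92 ± 0.08, adjusted p = 6.5e-07), Herpud1 (-0.79 ± 0.10, adjusted p = 2.56e-05), Ern1 (-0.30 ± 0.09, adjusted p = 0.014), Creld2 (-0.28 ± 0.06, adjusted p = 0.00208) and Dnajc3 (-0.25 ± 0.04, adjusted p = 0.000162). Markers of other cell types differed as well. Of 10 tested neutrophil markers 6 were higher with LPS and 0 lower, among them S100a8 (0.43), S100a9 (0.52), Prtn3 (0.67) and Mpo (0.47); with library totals 0 were higher and 1 lower. Of 4 tested stromal markers 2 were higher, Col1a1 (0.43) and Col1a2 (0.45), and 0 with library totals. Neutrophil markers summed to 217 to 469 CPM with LPS and 166 to 332 CPM with TNF, and stromal markers to 52.6 to 232 CPM with LPS and 15.6 to 203 CPM with TNF. Among the rest, Ccr7 of 4 tested dendritic cell markers was higher and Kit, the 1 tested mast cell marker, lower, and 0 of 4 tested B and plasma cell markers and 0 of 1 tested T and NK cell marker passed. Their part in the values of LPS against TNF was not tested.

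By time, the members called were set beside all genes. At 0.5 h 0 members passed (0.0442% of all genes called; 0 at an unadjusted p under 0.05 or with any other tool run), and at 1 h only Ppp1r15a did (3.23% of members, 1.2% of all genes), a call lost without the RelA-TA-KI library at 3 h of TNF and without a filter. At 3 h 3 members were higher and 8 lower (35.5% of members, 31.3% of all genes), or 1 and 27 with library totals, with Ddit3 at -1.64 ± 0.25, adjusted p = 0.000236 and Trib3 at -1.20 ± 0.36, adjusted p = 0.0223. At 8 h 7 were higher and 12 lower (61.3% of members, 58.4% of all genes), and Ddit3 was then on the other side at 1.33 ± 0.19, adjusted p = 4.36e-05. Atf6 and Sesn2 were also higher with LPS at 8 h (0.43 ± 0.12 and 0.80 ± 0.23), and Calr and Manf lower (-0.41 ± 0.07 and -0.75 ± 0.12). With library totals 1 member, Ddit3, was higher and 24 were lower at 8 h, Atf6 among them (-0.28). Without the 8 h pair of LPS or of TNF the count over the 4 times was 8 or 6 in place of 16, and Dnajb11, Creld2 and Dnajc3 no longer passed. Dnajb11 also failed without a filter on low counts and without the RelA-TA-KI library at 3 h of TNF. The same held without any 1 of the 1 h and 3 h pairs of either stimulus. Ern1 failed without the 3 h pair of LPS (adjusted p = 0.293) and without the 3 h (0.273) or 8 h (0.0632) pair of TNF.

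The 8 members with an ERSE match are given together as a description, and nothing about the motif is read from their counts. At 8 h of LPS 2 rose, Syvn1 and Hspa5, Dnajc3 fell and 5 did not pass (67.7% of all genes called), with values from -0.91 to 1.24 and a median of 0.11 (log2). After TNF 4 rose, Hspa5, Creld2, Syvn1 and Calr, and 0 fell (31.9% of all genes called), with values from 0.05 to 0.75 and a median of 0.37. Hsp90b1, which holds 2 matches, had -0.01 ± 0.07 after LPS and 0.14 ± 0.07 after TNF, where library totals give -0.96 and -0.11. Of the 3 members with a CARE core, Asns and Chac1 moved in opposite directions at 3 h of LPS, and Chac1 and Herpud1 both rose at 1 h and fell at 3 h. With library totals every one of the 8 ERSE holders except Syvn1 and Hspa5 was called down at 8 h of LPS, and at 8 h of TNF Hsp90b1, Canx, Pdia6 and Dnajc3 were below 0 without passing.

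**Figure D4:**
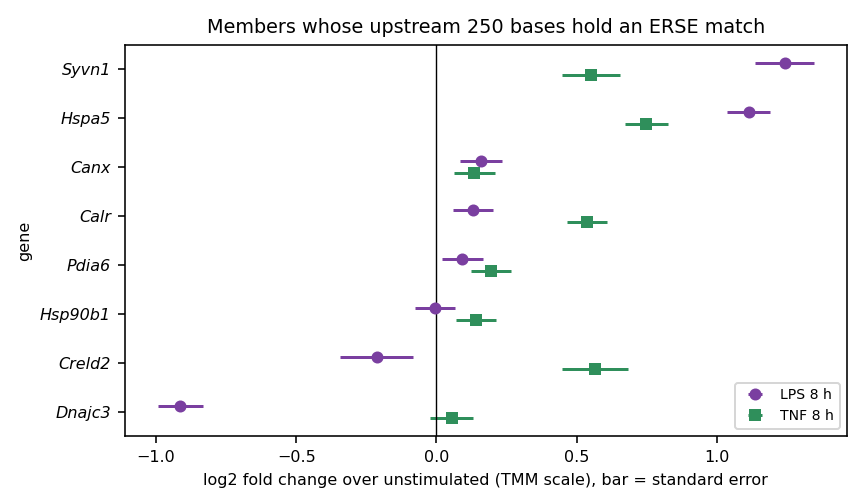
Fitted log2 fold change at 8 h of LPS (circles) and TNF (squares) over unstimulated cells, with standard errors, for the 8 members whose upstream window holds an ERSE match, on the TMM scale. The LPS values run from -0.91 for Dnajc3 to 1.24 for Syvn1 and the TNF values from 0.05 to 0.75; with library totals only Syvn1 and Hspa5 stay above 0 after LPS.

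A number of these genes were slightly higher in RelA-TA-KI cells over all conditions. Across the 9 pairs of libraries 10 members were higher in RelA-TA-KI and 1, Herpud1, was lower, where 10.3% of all genes were higher and 9.46% lower (19.7% called); the median was 0.10 (log2) for members and -0.005 for all genes. With library totals 4 were higher, Ddit3, Edem1, Hspa5 and Xbp1, and Herpud1 was lower. Markers of other cell types also differed by genotype: summed markers of stromal cells were 15.6 to 84.2 CPM in RelA-TA-KI and 120 to 232 CPM in WT, with all 4 tested markers of 7 lower. Neutrophil markers summed to 166 to 343 CPM in RelA-TA-KI and 229 to 469 CPM in WT, with 8 of 10 tested lower and 1 higher. B cell and plasma cell markers summed to 32.8 to 63.8 CPM in RelA-TA-KI and 14.9 to 26.8 CPM in WT, with 1 of 4 tested, Ighm, higher. Of the 11 macrophage markers 4 were higher and 2 lower, and of 4 dendritic cell markers tested 2 were lower. Of the listed markers, Lum, Ncr1 and Fcer1a were at 0 in every library and Mzb1 and Jchain at or near 0. Others of the same lists were present. Col1a1, Col1a2 and Sparc reached 74, 109 and 43 CPM, and Ighm, Cd4 and Kit 57.2, 55.8 and 32.5 CPM. The part of all these markers in the genotype values was not tested, and in bulk RNA fewer cells of a type and less RNA per cell cannot be told apart.

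Edem1 had the smallest adjusted p of the members, with 632 CPM in RelA-TA-KI against 413 CPM in WT at 8 h of LPS and 0.33 ± 0.05, adjusted p = 0.000902 over all pairs. Xbp1 was higher in 9 of 9 pairs by 0.13 to 0.69 on the TMM scale (0.30 ± 0.06, adjusted p = 0.00199), but its pair at 8 h of LPS reversed with library totals. Hspa5 was higher in 9 of 9 pairs by 0.11 to 0.29 (0.20 ± 0.04, adjusted p = 0.00151). Trib3 had 0.47 ± 0.15, adjusted p = 0.0453 and was higher in 8 of 9 pairs; it did not pass with DESeq2, with library totals, without the RelA-TA-KI library at 3 h of TNF, or without any 1 of the 1 h and 3 h LPS pairs and the 0.5, 1 and 3 h TNF pairs. Ddit3 (0.41 ± 0.10, adjusted p = 0.0103) was higher in 8 pairs and Asns (0.21 ± 0.05, adjusted p = 0.00876) in 7. Syvn1 (0.20 ± 0.05), Atf6 (0.17 ± 0.05), Pdia6 (0.17 ± 0.03) and Calr (0.12 ± 0.03) also passed, and none of them did with library totals. Herpud1 was lower in 9 of 9 pairs, from -0.16 to -1.33, with -0.43 ± 0.09, adjusted p = 0.0041 over all pairs. On the TMM scale 9 members were higher in RelA-TA-KI in every pair, 1 was lower in every pair and 21 were mixed or tied. The share of all genes with such patterns was not counted, nor were the patterns with library totals, so these counts are a description only.

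By stimulus, 5 members passed for the genotype effect over the LPS times (9.99% of all genes called). Xbp1 (0.40 ± 0.08, adjusted p = 0.0119), Ddit3 (0.58 ± 0.15, adjusted p = 0.0341), Edem1 (0.36 ± 0.09, adjusted p = 0.0245) and Hspa5 (0.27 ± 0.05, adjusted p = 0.0104) were higher and Herpud1 (-0.53 ± 0.15, adjusted p = 0.0453) lower. With library totals 2 were higher and 1 lower. Leaving out 1 pair left 1 to 6 calls, and Herpud1 did not pass without any 1 of 7 pairs, with limma-voom or without the RelA-TA-KI library at 3 h of TNF. Ddit3 did not pass with library totals (adjusted p = 0.102). It also failed without any 1 of the 0.5, 1 and 3 h LPS pairs and the 1 h TNF pair. Edem1 failed without any 1 of the 1, 3 and 8 h LPS pairs. Xbp1 failed without the 3 h LPS pair (0.0556), and Hspa5 with library totals (0.053). Over the TNF times 0 members passed with edgeR (5.32% of all genes called), with 10 at an unadjusted p under 0.05, 3 with DESeq2 and 1 with limma-voom. The difference of the genotype effect between LPS and TNF passed for 0 members and for 0% of all genes, with 0 members at an unadjusted p under 0.05 and 0 with any other tool run.

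The genotype effect at 3 and 8 h minus that at 0.5 and 1 h passed for 0 members (1.08% of all genes called), with 8 at an unadjusted p under 0.05 and 1 each with DESeq2 and limma-voom. Ppp1r15a had 1.55 ± 0.38, adjusted p = 0.178, its ratio of RelA-TA-KI to WT lying below 1 at 0.5 and 1 h of LPS and above 1 at 3 and 8 h. Values below 0 were those of Sesn2 (-0.60 ± 0.16, adjusted p = 0.134), Atf4 (-0.53 ± 0.14, adjusted p = 0.117) and Ddit3 (-0.49 ± 0.15, adjusted p = 0.173), so none of these time patterns is shown to differ by genotype.

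**Figure D5:**
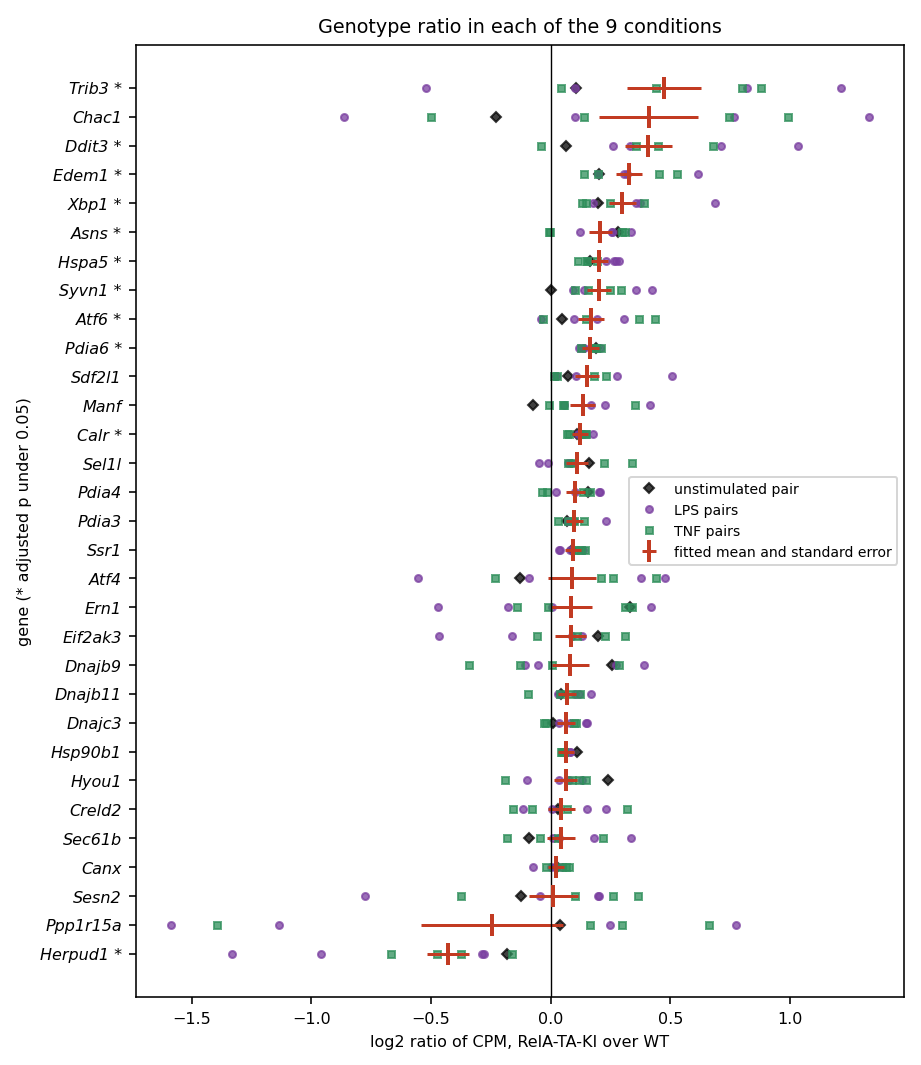
Log2 ratio of CPM, RelA-TA-KI over WT, in each of the 9 conditions (diamond unstimulated, circles LPS, squares TNF) for each member, with the fitted mean and its standard error (red) and an asterisk where the adjusted p is under 0.05. On the TMM scale Hspa5, Xbp1 and Edem1 lie above 0 in 9 of 9 pairs and Herpud1 below 0 in 9 of 9. With library totals the Xbp1 pair at 8 h of LPS turns below 0, and 4 members were called higher in place of 10, and Herpud1 lower.

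Other genes of the pathway were taken from 8 lists of 141 genes, of which 132 were tested. After LPS 51 rose and 38 fell, or 67.4% of them, where 72.2% of all genes were called, and library totals gave 14 up and 114 down. After TNF 26 rose and 8 fell, or 25.8%, where 30.4% of all genes were called, and library totals gave 5 up and 30 down. Both shares are near the background. Set against TNF, LPS gave higher levels of 22 and lower levels of 35, or 43.2% (48.9% of all genes), and 9 and 111 with library totals. Of 30 tested amino acid and tRNA charging targets of ATF4 11 rose and 14 fell after LPS, where 35.8% of all genes rose and 36.4% fell and library totals gave 6 up and 23 down. Up were Nupr1, a stress-induced chromatin protein (4.08 ± 0.63 at 8 h, adjusted p = 0.000224), and Slc7a11, the cystine transporter (3.88 ± 0.52 at 3 h, adjusted p = 0.000152). Down were Iars, an isoleucyl-tRNA synthetase (-2.22 ± 0.23 at 8 h, adjusted p = 3.3e-06), and Ddit4, an inhibitor of mTORC1 signalling (-2.36 ± 0.57, adjusted p = 0.00227). After TNF 7 rose and 5 fell (40% of the list, 30.4% of all genes; 3 up and 10 down with library totals), with Slc7a11 at 4.26 ± 0.52 (adjusted p = 0.000143) and Shmt2, a serine enzyme, at -0.70 ± 0.10 at 8 h (adjusted p = 0.000108). Atf3, a stress-induced factor, rose by 1.53 ± 0.14 at 0.5 h of TNF (adjusted p = 0.000109) and was higher with LPS than with TNF by 1.27 ± 0.07 (adjusted p = 1.53e-08).

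In the list of ER-associated degradation 10 of 19 tested genes rose and 0 fell after LPS (52.6%, against 72.2% of all genes called), and 4 rose and 0 fell after TNF (21.1%, against 30.4%), where library totals gave 1 up and 17 down after LPS and 0 up and 2 down after TNF. In the list of folding enzymes 6 of 23 rose and 6 fell after LPS (52.2%), and 4 rose and 0 fell after TNF (17.4%), where library totals gave 0 up and 22 down after LPS and 0 up and 4 down after TNF. For genotype 20 of the 132 genes were higher in RelA-TA-KI and 2 lower (16.7% of them, 19.7% of all genes), or 6 and 9 with library totals. Atf3 (0.70 ± 0.06, adjusted p = 6.76e-06), Selenok, a selenoprotein of ER-associated degradation (0.35 ± 0.04, adjusted p = 9.07e-05), and P4hb, the main disulfide isomerase (0.29 ± 0.03, adjusted p = 7.19e-05), were higher, and Slc7a11 (-1.26 ± 0.23, adjusted p = 0.00356) and Traf2, an adaptor of IRE1 (-0.27 ± 0.08, adjusted p = 0.0281), lower. These are values of single genes, and no test of a list was run.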

How the data were processed

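The data are read counts per gene, not normalised, as deposited by the authors, for polyA RNA of 18 libraries (KAPA stranded kit, single-end reads). Per the submitters' processing notes, the tools were cutadapt 1.12, STAR, featureCounts 1.5.0 and DESeq2, on mm10. Neither the strand setting nor the release of the annotation is given in the sources used here. Counts were tested with edgeR 4.0.16 (R 4.3.3): genes passing filterByExpr with a minimum count of 10 (11308), TMM factors, quasi-likelihood F tests and Benjamini-Hochberg adjustment over all tested genes. With 1 library per genotype and condition, the model held condition and genotype, so that the genotypes serve as replicates (8 residual degrees of freedom), or genotype within each stimulus (6) or phase (4). The scripts were tested on simulated data. Alternatives were library totals, DESeq2 size factors, DESeq2 1.42.0, limma-voom (limma 3.58.1), other filters, each pair of libraries left out, and the RelA-TA-KI library at 3 h of TNF left out. Values in every library are given for the sensors, the transcription factors, Hspa5 and, for both responses, LPS against TNF and genotype, the up to 5 members past the threshold with the largest change in each direction; for wider lists up to 4 genes, and up to 6 promoters with a searched motif. Members and lists were chosen with earlier results of these data known. Intervals cover counting error only.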

Additional observations from a re-analysis of the deposited data

How the results depend on the processing

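Counts of members called are given here by setting, with the main count first. Scaled by library totals, 12 calls at 3 h of LPS became 28, 16 at 8 h became 26, 3 at 3 h of TNF became 0, 16 for LPS against TNF became 27, 11 at 3 h of that comparison became 28, 11 for genotype became 5 and 5 for genotype after LPS became 3. Library totals also reversed Dnajb11 (-0.16 at 8 h of LPS and -0.20 for LPS against TNF) and Hspa5 (-0.077 for LPS against TNF). Without a filter on low counts, 1 call at 0.5 h of LPS became 0, 0 at 1 h of TNF became 1, 3 at 3 h of TNF became 1, 1 for LPS against TNF at 1 h became 0, 0 for genotype after TNF became 1 and 0 for late minus early became 2. DESeq2 called 1 member at 0.5 h and 1 at 1 h of TNF, 3 for genotype after TNF and 1 for late minus early, and limma-voom 1 at 1 h of TNF, 1 for genotype after TNF and 1 for late minus early. Without the RelA-TA-KI library at 3 h of TNF, calls fell to 0 at 0.5 h of LPS, at 3 h of TNF and for LPS against TNF at 1 h. Leaving out 1 pair of libraries gave 14 to 22 calls for the LPS response, 1 to 12 for the TNF response (1 without the 8 h pair of TNF), 0 to 1 at 0.5 h of LPS, 0 to 1 at 1 h of TNF, 6 to 17 for LPS against TNF, 0 to 1 for it at 1 h, 1 to 6 for genotype after LPS, 0 to 4 after TNF and 0 to 3 for late minus early. The cause was not tested in any of these. Chac1 and Trib3 had the fewest reads of the members, with as few as 2 and 17 in a library. Eif2ak3, Herpud1 and Ddit3 had as few as 19, 23 and 29, so their lowest levels rest on few reads too.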

Other observations

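Among 7 eIF2alpha kinase and phosphatase genes 4 rose and 3 fell after LPS (2 up and 5 down with library totals), where 35.8% of all genes rose and 36.4% fell (72.2% called). Eif2ak2, which encodes the interferon-induced kinase PKR, rose by 3.39 ± 0.12 (log2) at 8 h of LPS (adjusted p = 4.56e-11) and by 2.03 ± 0.11 at 8 h of TNF (adjusted p = 4.2e-08), and with library totals by 2.43 and 1.78. Ppp1r15b, which encodes the constitutive partner of the eIF2alpha phosphatase, was higher with LPS than with TNF by 1.01 ± 0.06 (adjusted p = 6.35e-08). Of 25 tested genes of translocation and signal peptide removal 9 rose and 4 fell after LPS (52% of the list), where library totals gave 1 up and 24 down, and of 17 genes of ER to Golgi transport 7 rose and 6 fell (76.5%), where library totals gave 1 up and 15 down. Sec24d, a COPII coat subunit, fell by 2.37 ± 0.21 at 8 h of LPS (adjusted p = 3.72e-07). In the ATF6 family and its proteases 3 of 8 rose and 4 fell after LPS (87.5%; 2 and 6 with library totals). Creb3l2, a membrane-bound factor of that family, fell by 1.96 ± 0.23 at 8 h of LPS (adjusted p = 4.39e-06), and Creb3l1 fell by 0.84 ± 0.19 at 3 h of TNF (adjusted p = 0.0115). Of 3 tested IRE1 substrates and partners 1 rose and 1 fell after LPS (66.7%; 1 and 2 with library totals), and Traf2 rose by 0.94 ± 0.17 at 8 h of TNF (adjusted p = 0.000737). With so few genes in a list, these shares are descriptions of the lists beside all genes tested.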
